A study of Arabidopsis thaliana with 8 samples.

Results

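The genes described here are ROS1 (AT2G36490), DME (AT5G04560), DML2 (AT3G10010), DML3 (AT4G34060) and IDM1 (AT3G14980), which carry out or steer active DNA demethylation in Arabidopsis thaliana. They were taken by gene ID, and all 5 were found among the 27213 protein-coding genes of the deposited files. The study used ChIP-seq, in which DNA bound to an immunoprecipitated histone is sequenced, with 4 antibodies, against histone H3, H3K4me3, H3K27me3 and H3K9me2. The leaf samples came from wild-type Col-0 plants on MS agar plates. The culture was a Col-0 suspension cell line in Gamborg's B5 medium with 3% sucrose, 3 mM MES as the buffer and the synthetic auxin 2,4-D at 1.1 mg/l, kept at 23 °C and 160 rpm under constant light and diluted every 7 d. The labels state neither plant age nor pooling, and the culture stands for a single cell line. They give the strength and time of a paraformaldehyde fixation for the culture libraries only. Each antibody gave 1 leaf and 1 culture library, 8 together, so no difference below has a replicate check and no p-value is given.

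ROS1, DME, DML2 and DML3 encode bifunctional DNA glycosylases, enzymes that cut 5-methylcytosine out of DNA so that repair can put an unmethylated cytosine in its place. ROS1, DML2 and DML3 act in vegetative tissue, and DME is known above all for its work in the central cell of the ovule, where it sets gene imprinting in the endosperm. IDM1 is a histone acetyltransferase that prepares chromatin for ROS1 at some of its targets. ROS1 transcription in turn depends on DNA methylation near a Helitron element in front of the gene. H3K4me3 lies at the start of active genes, H3K27me3 is laid down by Polycomb over silent genes, and H3K9me2 accompanies DNA methylation over silent transposons.

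Nuclear reads per library ranged from 1449274 to 5649143, and the H3 count of the median protein-coding gene was 19 in leaf and 35 in the culture. The read totals are sums over the deposited intervals, so a read where intervals overlap can count more than once. Plastid reads made up 12.2% of the leaf H3 library and 0.033% of the culture H3 library, and they were left out of the scaling. Levels are the log2 of mark over H3, each per 1000000 nuclear reads after adding 1 read, so gene length cancels. A change is the culture level minus the leaf level. The 95% intervals come from the read counts alone and hold nothing of the variation from plant to plant or between immunoprecipitations, and the labels mention no spike-in. A gene is said to have risen or fallen if it changed by 2-fold or more with an interval that excluded 0. All 5 genes had at least 20 reads of each mark and 10 of H3, the minimum for a comparison. As a check of the labels, 3 of 5 measured photosynthesis markers (6 listed) fell in H3K4me3 in the culture, among them PSBO1 at -2.04 (-3.00 to -1.09), while PSAD1 rose by 1.26. Without the division by H3, PSBO1 alone of these still passed the rule, at -2.33. Of 4 measured markers of dividing cells (5 listed) 3 rose, among them CYCA1;1 by 3.21 (2.03 to 4.38). The shoot meristem genes STM and WUS carried H3K27me3 in both sample types, with levels of 3.27 and 4.09 in leaf and 4.05 and 3.67 in the culture, while CLV3 had too few H3 reads.

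H3K27me3 separated DML3 from the other 4 genes. In the culture DML3 carried H3K27me3 at 3.49 times the H3 level, against 1.02 times in leaf, while ROS1, DME, DML2 and IDM1 stayed below the H3 level in both sample types. DML3 was the only one of the 5 genes that rose, and none fell. Among all 19845 protein-coding genes tested for this mark 2.76% rose and 26.7% fell, with a median change of -0.57. Measured from that median, 8.61% rose and 11.8% fell, and DML3 still rose. The median over the 5 genes was -0.37. In the culture 11.9% of the tested genes reached 2-fold over H3, DML3 among them.

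DML3 (chromosome 4, 16314003 to 16319426 in TAIR10 coordinates, as are all positions here) is the shortest of the 4 glycosylase genes, with an interval of 5.42 kb. Its H3K27me3 reads numbered 54 in leaf and 537 in the culture, beside 35 and 84 H3 reads. Per kb and per 1000000 nuclear reads this was 4.61 in leaf and 17.5 in the culture. The H3 coverage on that scale was 4.45 and 4.97, so it differed little while the mark was several times higher. In chromatin from a whole tissue or culture, a mark in more cells and more of the mark in each cell cannot be told apart. On the log2 scale the DML3 level went from 0.04 (-0.57 to 0.64) to 1.80 (1.47 to 2.13), a change of 1.77 (1.08 to 2.46) or 3.41-fold. Of the genes tested 218 had a change at least as large. It was one of 160 genes that rose from below 2-fold over H3 in leaf to at least 2-fold in the culture. The rise also held without the division by H3, at 1.90 (1.5 to 2.30). For scale, the culture level of DML3 remained below those of the Polycomb-marked meristem genes STM and WUS given above.

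**Figure D1:**
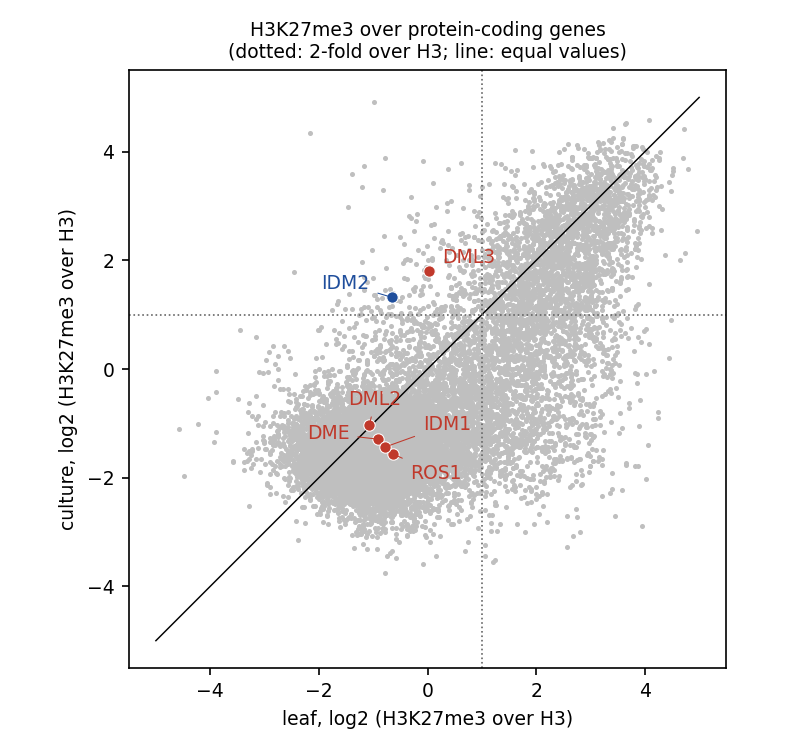
H3K27me3 over H3 (log2) in leaf (x axis) and in the culture (y axis) for the 19845 tested protein-coding genes (grey, 1 library per axis value and antibody), with the 5 demethylation genes in red and IDM2 in blue. DML3, at 0.04 in leaf and 1.80 in the culture, lies above the line of equal values and past the dotted 2-fold level in the culture only, while ROS1, DME, DML2 and IDM1 lie within the main cloud.

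ROS1 (chromosome 2, 15308021 to 15314807), the main demethylase of vegetative tissue, had 54 H3K27me3 reads in leaf and 70 in the deeper culture library. ROS1 stood at -0.63 (-1.16 to -0.09) in leaf and at -1.57 (-1.99 to -1.14) in the culture, the lowest culture level of the 5 genes. The change of -0.94 (-1.62 to -0.26) did not reach the 2-fold rule. Without H3 it was -1.02 and with scaling to all reads -1.14, both of which count as a fall, and measured from the median gene it was -0.37, which does not. IDM1 (chromosome 3, 5039931 to 5045403) had 52 and 56 reads and a change of -0.66 (-1.37 to 0.06). Without H3 it was -1.28 (-1.82 to -0.74), a fall by the rule.

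DME (chromosome 5, 1309193 to 1318401), the longest of the set at 9.21 kb, had 82 and 108 H3K27me3 reads and a change of -0.37 (-0.92 to 0.17). DML2 (chromosome 3, 3081814 to 3088195), another glycosylase gene of vegetative tissue, had 48 and 89 reads and a change of 0.03 (-0.64 to 0.70). Both genes lay near the median gene in leaf, whose level was -0.72, and in the culture, where it was -1.34. In the culture the difference between DML3 and each of the other 4 genes excluded 0, from 2.84 (2.32 to 3.37) against DML2 to 3.37 (2.83 to 3.91) against ROS1. Among the other 4 genes none of the culture levels differed by more than counting error. In leaf DML3 already had the highest level over H3, 0.81 (0.01 to 1.62) above IDM1, and it did not differ from ROS1 beyond counting error. Before the division by H3, leaf H3K27me3 coverage per kb, scaled to nuclear reads, was 4.61 at DML3 and 4.40 at IDM1. It was 4.12 at DME, 3.68 at ROS1 and 3.48 at DML2. Leaf H3 coverage on that scale was 4.45 at DML3 and 7.57 at IDM1, so their difference in level lay mostly in H3.

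The difference in change between genes was also set against its counting error. DML3 exceeded DML2 by 1.74 (0.78 to 2.70), DME by 2.14 (1.26 to 3.02), IDM1 by 2.42 (1.43 to 3.42) and ROS1 by 2.71 (1.74 to 3.68). Of the remaining 6 pairs only ROS1 and DML2 differed, by -0.97 (-1.93 to -0.01).

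**Figure D2:**
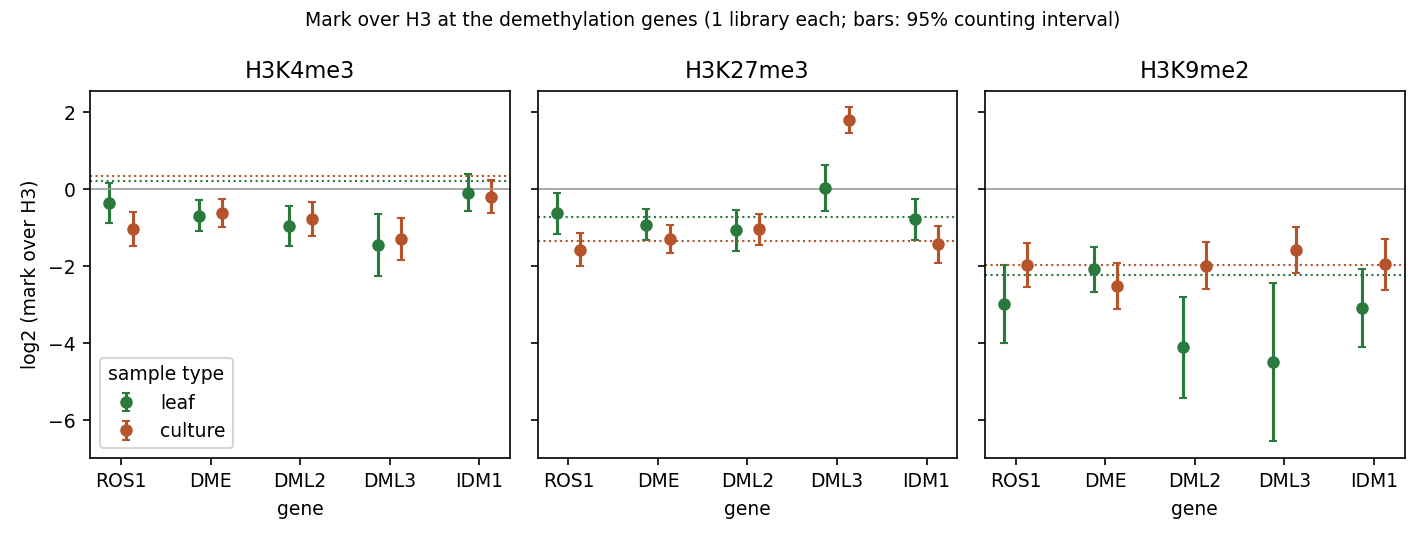
Level of each mark over H3 (log2, y axis) at each gene (x axis) in leaf (green) and culture (brown), with 95% counting intervals from 1 library per point and dotted lines at the median of all tested genes. The culture H3K27me3 point of DML3 at 1.80 stands apart, and no H3K4me3 or H3K9me2 point reaches 2-fold over H3.

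Among the intervals around DML3 with enough reads to compare, only the gene itself rose in H3K27me3. The element inside DML3, an ATREP10A Helitron of 533 bp (16317217 to 16317750), had 1 leaf and 36 culture reads of H3K27me3, beside 0 and 7 H3 reads. Those reads are counted for the gene as well. Subtracting them left the change of DML3 at 1.82 (1.12 to 2.52). The 614 bp on the low side had 0 and 10 reads, too few to compare. On the high side the 3669 bp up to the next gene had 19 and 74 reads and a change of 0.20 (-0.72 to 1.13). Of 7 tested genes within 15 kb none rose and 2 fell, with changes from -1.38 to -0.33 and culture levels of at most -1.45. CCoAOMT1, the nearest gene at 1787 bp, is an enzyme gene of lignin synthesis and had 4 H3K27me3 reads in each library, too few to compare.

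**Figure D3:**
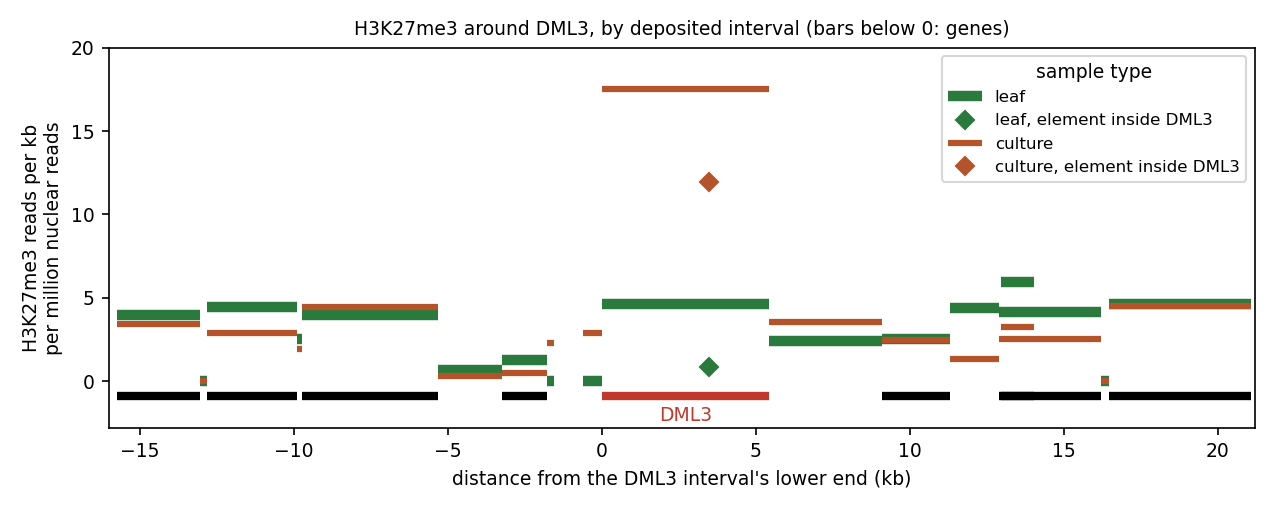
H3K27me3 reads per kb per 1000000 nuclear reads (y axis) over each gene and intergenic interval of more than 100 bp around DML3, in leaf (green) and culture (brown), by distance from the lower end of the DML3 interval in kb (x axis), with genes as bars below 0 and the element inside DML3 as diamonds. The DML3 interval stands at 17.5 in the culture and 4.61 in leaf, and no other gene or intergenic interval exceeds 6.

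H3K4me3 over the 5 genes was low. None of the 5 rose or fell, against 12.7% risen and 8.55% fallen of 20473 genes tested, and the median change was 0.08 beside 0.11 over all genes. Without the division by H3 the median turned to -0.54, beside -0.14 over all genes, and still none of the 5 passed the rule. None reached 2-fold over H3 in either sample type, a level that 22.8% of the tested genes reached in leaf and 29.2% in the culture. The deposited counts cover whole gene bodies, while H3K4me3 sits near the start. Whether gene length accounts for the low levels was not tested. Among 1297 tested genes of 5 to 10 kb the median level was -0.14 in both sample types, and that length class was chosen after the values were seen.

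IDM1 had the highest H3K4me3 level, with 81 reads in leaf and 82 in the culture and levels of -0.09 (-0.57 to 0.39) and -0.19 (-0.63 to 0.24). The small gene AT3G14981 lies inside its interval and held 9 and 7 of those reads. DML3 had the lowest level, with 18 and 38 reads and levels of -1.44 (-2.24 to -0.64) and -1.28 (-1.83 to -0.73). Against genes of 5 to 10 kb, IDM1 stood near the middle, at percentile 53.4 in leaf and 46.3 in the culture. DML3 stood near the bottom, at 1.54 and 2.54. ROS1 was at 36.9 and 6.40, DME at 17.7 and 20.7, and DML2 at 7.71 and 13.8. The order in leaf was IDM1, ROS1, DME, DML2 and DML3, and none of the neighbours in that order differed beyond counting error. IDM1 exceeded DML3 by 1.35 (0.42 to 2.28) in leaf and by 1.09 (0.39 to 1.79) in the culture.

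ROS1 had the lowest H3K4me3 change of the 5 genes. It held 63 reads in leaf and 62 in the culture, although the culture library was deeper, and its level went from -0.35 (-0.87 to 0.16) to -1.04 (-1.48 to -0.60). The change was -0.69 (-1.37 to -0.01), which did not reach 2-fold, and 16.9% of all tested genes had a lower one. DME had 92 and 106 reads and a change of 0.08 (-0.46 to 0.62), which turned to -0.54 (-0.94 to -0.14) without H3. DML2 had 50 and 66 reads and a change of 0.19 (-0.50 to 0.88), which turned to -0.35 (-0.88 to 0.17) without H3. DML3 and IDM1 had changes of 0.16 (-0.81 to 1.13) and -0.10 (-0.75 to 0.55). None of the 10 pairs of genes differed in H3K4me3 change beyond counting error. The intervals reach down to -1.37 at ROS1 and up to 1.13 at DML3, so at both genes they include changes of more than 2-fold.

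**Figure D4:**
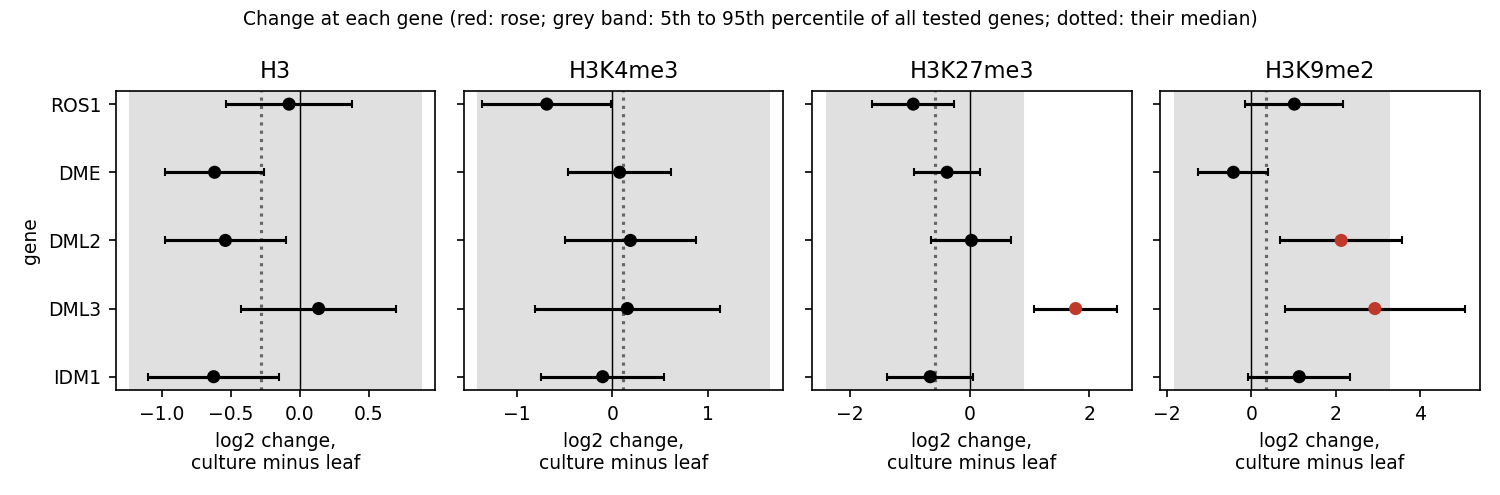
Log2 change from leaf to culture (x axis) of H3 and of each mark over H3 at each gene (y axis), with 95% counting intervals, genes that rose in red, the 5th to 95th percentile of all tested genes in grey and their median dotted. DML3 in H3K27me3 is the only point outside the grey band, and DML2 and DML3 rose in H3K9me2 from few leaf reads.

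H3K9me2 was scarce over all 5 genes, and DML2 and DML3 rose by the rule from very few leaf reads. Of 6147 genes with enough reads 21.6% rose and 10.7% fell, so 2 of 5 is not far from the background. The count was 4 of 5, with ROS1 and IDM1 added, when the totals left out intervals of very dense H3, and 1843 of the 6147 genes then rose. Measured from the median gene, whose change was 0.34, 14.4% rose and 16.8% fell, and both genes still rose. DML3 had 1 leaf read and 29 culture reads, a 7.59-fold ratio (1.72 to 33.3) that shrank to 3.04-fold (1.18 to 7.82) with 5 reads added to each count in place of 1. DML2 had 4 and 26 reads, a change of 2.13 (0.68 to 3.57), or 1.5 (0.35 to 2.66) with 5 reads added. Both genes reached the minimum of 20 reads through the culture library, where they are high, so passing the rule is no support for a rise. In the culture their levels were -1.57 (-2.17 to -0.97) and -1.98 (-2.60 to -1.37), that is, below the H3 level. The median tested gene stood at -2.22 in leaf and -1.97 in the culture, so both genes came to lie near it.

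ROS1 and IDM1 each had 8 leaf reads, with 30 and 22 in the culture, and changes of 1.02 (-0.15 to 2.18) and 1.13 (-0.08 to 2.34). DME had 30 and 26 reads, the most in leaf, and a change of -0.43 (-1.26 to 0.40). With 1 read added to each count, DME differed in change from each of the other 4 genes, by 1.44 (0.02 to 2.87) from ROS1 and by 3.35 (1.06 to 5.65) from DML3. These differences rest on few leaf reads at the other genes. With 5 reads added the changes were -0.39 (-1.17 to 0.39) at DME, 0.71 (-0.31 to 1.73) at ROS1 and 0.86 (-0.20 to 1.92) at IDM1. Those intervals overlap, and differences between genes were not computed at that setting. None of the 5 genes reached 2-fold over H3 in either sample type, as 3.63% of tested genes did in leaf and 4.57% in the culture.

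H3 itself, the denominator of these values, neither rose nor fell at any of the 5 genes, against 4.04% risen and 10.5% fallen of 21146 genes, or 7.16% and 4.08% when measured from the median gene. Per kb and per 1000000 nuclear reads, DME had 7.79 in leaf and 5.09 in the culture, IDM1 7.57 and 4.93, and DML2 7.35 and 5.08. ROS1 had 5.69 and 5.44. In leaf H3 coverage thus varied from 4.45 at DML3 to 7.79 at DME, while in the culture all 5 genes lay between 4.93 and 5.44. The H3 changes were -0.62 (-0.98 to -0.26) at DME, -0.63 (-1.10 to -0.15) at IDM1, -0.54 (-0.98 to -0.10) at DML2, -0.08 at ROS1 and 0.13 at DML3, beside -0.29 for the median gene.

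Transposable elements lie close to 4 of the 5 genes. Within 2 kb of them or inside them the files list 11 elements, 10 of which are Helitrons, with 5 at DML3, 4 at DML2, 1 each at DME and ROS1, and none at IDM1. None held enough reads to be compared for H3K9me2 or H3K27me3, and the highest H3K9me2 count on any of them was 3 reads in either sample type. The ATREP5 Helitron next to ROS1 (15314964 to 15315279, 315 bp, 157 bp from the gene interval) had 2 H3K9me2 reads in leaf and 0 in the culture, and 0 and 4 H3K27me3 reads. Neither H3 library had a read there, so no level over H3 can be given for it. Whether it is the Helitron linked to ROS1 transcription was not tested, as the files give no strand. The 2749 bp beyond it (15315279 to 15318028), a stretch picked after its counts were seen, had 48 leaf and 81 culture H3K27me3 reads, beside 13 and 22 H3 reads. H3K27me3 stood at 1.23 over H3 there in leaf and at 0.98 in the culture, with a change of -0.26 (-1.34 to 0.83), so it stood above the ROS1 gene body in both.

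Of the nearest genes on either side, EDA31, 2867 bp from DML2, had the widest change, with 326 leaf and 20 culture H3K27me3 reads (-5.66, -6.72 to -4.59). DML2 itself had 48 and 89, so the fall at EDA31 was not shared by DML2. EDA31 also rose in H3K4me3, by 2.14 (0.90 to 3.38). AT5G04550, beside DME, also fell in H3K27me3, at -1.08 (-2.13 to -0.02), but not when measured from the median gene (-0.51), and DJ1A, beside IDM1, fell in H3K4me3, at -1.20 (-2.18 to -0.22). ROS1 lies 227 bp from AT2G36485, which had 144 and 193 H3K4me3 reads over 840 bp, more than the whole ROS1 interval. The files give no strand, so reads near the ends of such close genes cannot be assigned to either with certainty.

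The other genes of the pathway were described from a list of 20. They comprise IDM1's partners IDM2, IDM3 and MBD7, the regulator ROS3, enzymes that finish the repair (ZDP, APE1L, APE2, ARP, LIG1 and XRCC1), the FACT subunits SSRP1 and SPT16 that assist DME, the H2A.Z deposition factors PIE1, ARP6 and MBD9 with the H2A.Z genes HTA8, HTA9 and HTA11, and the iron-sulfur assembly factors MET18 and AE7. H3K27me3 could be measured at 19 of them, of which 1 rose and 4 fell while 14 did neither, beside 2.76% risen and 26.7% fallen of all genes tested. The median change was -0.44, and neither count is far from the shares over all genes. The gene that rose was IDM2 (AT1G54840), whose alpha-crystallin-domain protein works in the complex with IDM1. IDM2 had 19 H3K27me3 reads in leaf and 121 in the culture, beside 20 and 26 H3 reads. Its level went from -0.65 to 1.32, a change of 1.96 (0.90 to 3.03), which 152 tested genes equalled or exceeded. IDM2 overlaps NF-YC3 by 78 bp. NF-YC3 held 7 and 48 H3K27me3 reads in all, so at least 73 of the 121 culture reads of IDM2 lie outside the overlap.

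The 4 genes that fell in H3K27me3 were MBD7 (-1.92, -3.05 to -0.79), which binds methylated DNA and anchors the IDM complex, IDM3 (-1.84), APE2 (-1.39) and ARP (-1.11). All 4 were below 2-fold over H3 in leaf, and MBD7 alone still fell when measured from the median gene, from which IDM3 lay at -1.27, APE2 at -0.82 and ARP at -0.54.

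H3K4me3 rose at 3 of 19 measured genes and fell at none, beside 12.7% risen and 8.55% fallen of all genes, and the median change was 0.24. ZDP, a phosphatase that trims the DNA end left by ROS1, rose by 1.92 (1.04 to 2.81), from 29 reads in leaf to 79 in the culture. H3 itself fell at ZDP, from 40 to 36 reads (-1.25, -1.89 to -0.61), and without H3 the H3K4me3 change was 0.67 (0.07 to 1.28), which did not pass the rule. ZDP lies 26 bp from EMB3120. AE7, of the pathway that supplies iron-sulfur clusters to enzymes such as the demethylases, rose by 1.69 (0.67 to 2.70), and likewise did not pass without H3, at 0.77 (0.07 to 1.47), beside an H3 change of -0.91. HTA11, an H2A.Z gene, rose by 1.25 (0.17 to 2.34), and by 1.37 without H3. The lowest change was that of HTA9, another H2A.Z gene, at -0.76 (-1.87 to 0.35), which without H3 counted as a fall (-1.11), while APE1L counted as a rise there (1.33). For H3K9me2 only 6 of the 20 genes had enough reads, from PIE1 at -0.46 to MBD9, the one that rose, at 1.33 (0.32 to 2.33). Of all genes 21.6% rose, and measured from the median gene MBD9 did not (0.99).

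**Figure D5:**
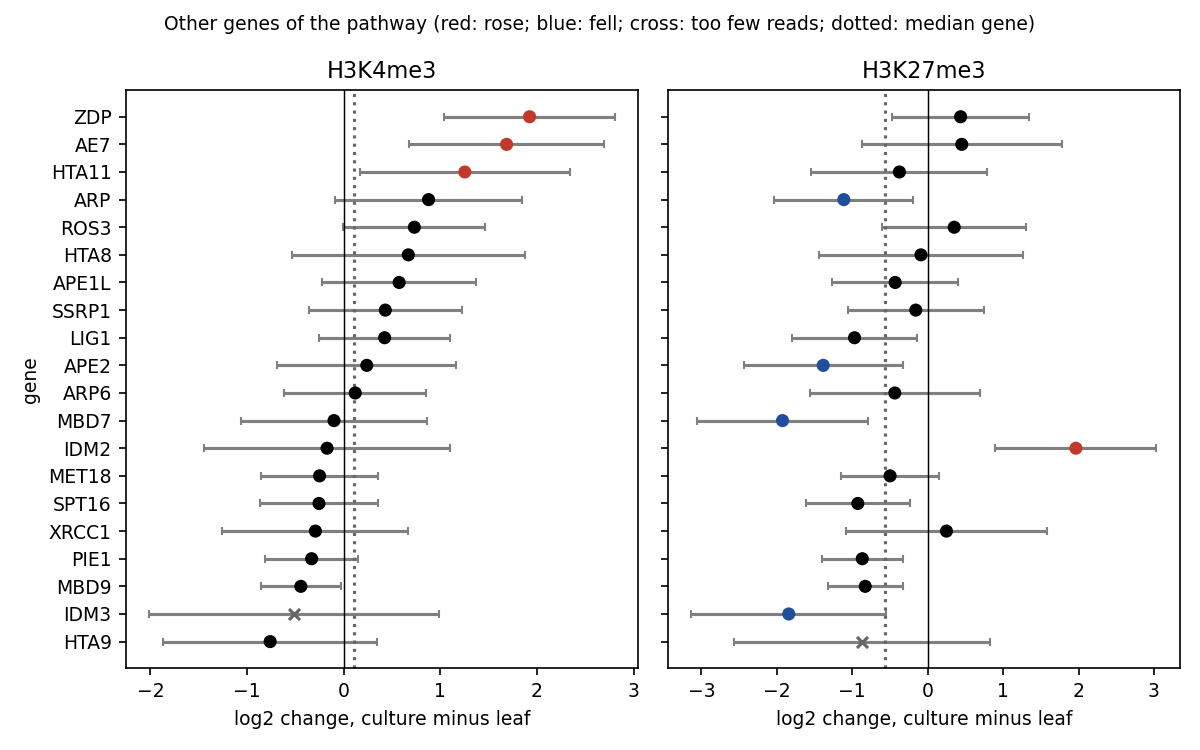
Log2 change of H3K4me3 and H3K27me3 over H3 from leaf to culture (x axis) at 20 other genes of the demethylation pathway (y axis), with 95% counting intervals, genes that rose in red, those that fell in blue and those with too few reads as crosses. ZDP, AE7 and HTA11 are red for H3K4me3 at 1.92, 1.69 and 1.25, and IDM2 alone is red for H3K27me3 at 1.96.

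A list of 10 genes named as DNA methyltransferases was set beside the genes that remove DNA methylation. Whether each of the 10, DNMT2 and CMT1 included, methylates DNA was not examined. Among them 4 fell in H3K27me3 and none rose, beside 26.7% fallen and 2.76% risen of all genes, and the median change was -0.69. The lowest was DRM1, a de novo methyltransferase gene, with 176 leaf and 39 culture reads and a change of -3.92 (-4.68 to -3.16). MEE57 had the highest, 0.40 (-0.22 to 1.02), at levels of 2.80 and 3.20. The others that fell were CMT1 at -1.36, DNMT2 at -1.15 and MET2B at -1.04. Measured from the median gene DRM1 alone still fell, with CMT1 at -0.79, DNMT2 at -0.58 and MET2B at -0.47. For H3K4me3 CMT3, which copies methylation outside CG sites, rose by 1.15 (0.42 to 1.89). DRM1 and MET2A fell with changes of -1.39 and -1.10, the latter -0.98 without H3, short of the rule. Over all genes tested for H3K4me3, 12.7% rose and 8.55% fell. For H3K9me2 MET2B and MET2A fell with changes of -3.33 and -2.74, and none of the 6 measured genes rose. CMT1 had the highest value, 1.14 (-0.31 to 2.60). Over all genes tested for H3K9me2, 21.6% rose and 10.7% fell. Measured from the median gene CMT2 fell as well (-1.03), beside 16.8% of all genes. MET2A and MET2B are close copies, as are the H2A.Z genes, and how reads that match several places were counted is not stated. With 1 library per group, the difference between the lists was not tested.

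Genes with the most similar pattern were sought by the Euclidean distance over 6 values, the 3 marks over H3 in both sample types. The search covered 6157 genes with a symbol and at least 20 reads in each H3 library. IDM2 was the second closest of these to DML3, at a distance of 1.18, after MYB57 at 1.11, a MYB transcription factor gene of stamen development. The median distance of all genes from DML3 was 4.81. MYB57 had 23 and 89 H3K27me3 reads, with levels of -0.38 and 0.93, so its culture level lay below that of DML3. For DME the closest were HEN1, a small-RNA methyltransferase gene, at 0.33 and NRPD2B at 0.34. ROS1 was closest to ABCG33, a transporter gene (0.32), and FU, a kinase gene (0.42). DML2 was closest to BRCA1, of DNA repair (0.43), and FAS4 (0.46), and IDM1 to QWRF8 (0.23) and the peroxisomal import receptor gene PEX5 (0.34). The gene closest to DML3 was thus farther away than the closest ones of the other 4. The median distance was also larger for DML3, as it was 2.75 for ROS1, 2.80 for DME, 2.95 for DML2 and 2.33 for IDM1. The leaf H3K9me2 values of DML3, MYB57 and IDM2 rest on 1, 0 and 0 reads.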

How the data were processed

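The authors deposited raw read counts, whole numbers per interval, for 109972 intervals (genes, transposable elements, intergenic stretches) in each of 8 libraries. Per the submitters' processing notes, Bowtie2, bedtools and the TAIR10 genome were used; the labels give no versions, settings or handling of duplicates. Of 26907 gene IDs found in RefSeq, 9206 had a start equal to the 1-based RefSeq start and 1 had a start 1 base below it. Starts were read as 1-based from these genes, and agreement at the other genes is not given. Lengths were taken as the end minus the start. Symbols came from RefSeq (TAIR10.1), where all 5 genes matched (ROS1 is listed as DML1 and IDM1 as ROS4).

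Levels and changes were computed with numpy 2.4.6 and pandas 2.3.3 on the whole table. Each count had a pseudocount of 1, and its error was Poisson (delta method). A comparison needed 20 mark reads over both libraries and 10 reads in each H3 library. The code was tested on simulated data. Read totals, summed over all intervals, were 1679480 to 5672742.

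The members, lists and rules were chosen with earlier results of these data known. Named were all members, pathway and methyltransferase genes called for H3K4me3 or H3K27me3, the extremes of each mark, and 2 genes per member with the closest pattern. Alternatives were no division by H3, no filter, a pseudocount of 5, other scalings, a 3-fold rule and other levels for a marked gene. Values without H3 for the methyltransferases and neighbouring genes, and from the median gene for the neighbours, were added after the data were seen. Protein identity and promoter content, also planned, were not analysed here, and H3K4me3 could be given over whole gene bodies only.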

Additional observations from a re-analysis of the deposited data

How the results depend on the processing

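The rise of H3K27me3 at DML3 was called under each alternative tried, with values from 1.57 (scaled to all reads) to 2.34 (measured from the median gene), also by the 3-fold rule. The H3K9me2 changes of DML2 and DML3 went down to 1.5 and 1.60 at a pseudocount of 5. Without H3, 2 of the 5 genes fell in H3K27me3 (ROS1 and IDM1) and 1 in H3K9me2 (DME), where 40.1% and 14.3% of all genes fell, and the median changes were -0.54 for H3K4me3 and -0.99 for H3K27me3. There, of the other pathway genes, 1 fell and 2 rose in H3K4me3, 7 of 19 fell in H3K27me3 and 2 of 6 rose in H3K9me2. Of all genes at that setting, 14.9% fell and 10.3% rose in H3K4me3, and 29.8% rose in H3K9me2. Measured from the median gene the H3K27me3 median of the 5 genes was 0.19, with 2 pathway genes risen and 1 fallen, and 0 pathway genes rose in H3K9me2. Scaled to all reads, 1 of the 5 genes fell in H3K27me3, as did 34.6% of all genes. With totals that leave out H3-dense intervals (more than 20 times the median gene in leaf H3 per kb), 4 of the 5 genes rose in H3K9me2, with ROS1 at 1.35 and IDM1 at 1.46, beside 1843 of all 6147 genes and a median change of 0.67. The causes were not tested. No paired analysis was possible because each group has 1 library, and none could be left out. Depth limits the elements and H3K9me2 most.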
